A study of Homo sapiens with 9 samples.

Results

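The serpins (serine protease inhibitors) are a large family of proteins that share a fold with a flexible, exposed reactive centre loop. Most members act as suicide substrates: a protease cleaves the loop, the serpin changes shape, and both proteins stay locked together in an inactive complex. Human serpins fall into lettered clades. Clade A holds mainly secreted plasma proteins, clade B intracellular inhibitors without a classical signal peptide, and the smaller clades hold regulators of clotting, fibrinolysis and complement. Some members inhibit no protease, among them the collagen chaperone SERPINH1 and the hormone carriers SERPINA6 and SERPINA7.

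The family was taken as every protein-coding gene of the deposited count table whose symbol starts with SERPIN. That rule used no expression value and gave 34 of 58735 genes. The libraries came from OVCAR3, an established human ovarian carcinoma line, in which GPX3, the gene of the secreted selenoprotein glutathione peroxidase 3, was knocked down. There were 3 groups of 3 libraries, all from cells after 72 h in culture: a scramble shRNA control, labelled WT, and 2 hairpins against GPX3, shRNA#76 and shRNA#78, here sh76 and sh78. Such a hairpin RNA is processed by the cell into a guide that lowers matching mRNAs. All groups are 1 cell line grown in the same serum- and insulin-containing medium. The labels do not say that replicates were separate cultures, so p-values measure the spread between these libraries, which may be technical.

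GPX3 (ENSG00000211445) was at 133 ± 34.8 CPM in scramble, 55.9 ± 0.852 in sh76 and 30.6 ± 4.01 in sh78 (mean ± SD, n = 3; CPM is the count scaled to library size with TMM factors). Its log2 fold change was −1.25 in sh76 and −2.12 in sh78 (edgeR adjusted p 0.00264 and 0.000125). GDF15, the secreted stress cytokine named in the study's title, was at 13.6 ± 0.544, 3.59 ± 1.56 and 1.75 ± 0.615 CPM (log2 −1.89 and −2.97, edgeR adjusted p 0.00264 and 0.000208). Library totals ran from 14652965 to 21327562 counts. All 8 markers of ovarian carcinoma epithelium had a mean over all 9 libraries of at least 1 FPKM (the deposited count scaled for gene length and library size), as did 1 of 6 fibroblast markers (COL1A1) and none of the 5 leukocyte, 3 endothelial or 3 hepatocyte markers. The summed epithelial markers ran from 1950 to 2250 FPKM in scramble, 1710 to 2010 in sh76 and 1600 to 1770 in sh78. The markers did not all fall. KRT8 had 725, 837 and 850 FPKM in scramble and 510, 596 and 573 in sh78. KRT18 had 584, 711 and 724, then 448, 510 and 504, and EPCAM and CDH1 were also lower in sh78. KRT7 had 284, 311 and 342 in scramble and 303, 358 and 383 in sh78. PAX8, WT1 and MUC16 overlapped between scramble and sh78. The part of these markers in the results was not tested. Every comparison of a hairpin with scramble uses the same 3 control libraries, so values for the 2 hairpins are set side by side.

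Of the 34 members, 13 passed the filter on low counts (38.2%, against 68.7% of all protein-coding genes), and 10 had a mean of at least 1 FPKM in a group. Another 17 had at least 1 count in some library, with a highest count of 12, in SERPINF2, the plasmin inhibitor alpha-2-antiplasmin. The other 4, SERPINA7, SERPINA12, SERPINB3 and SERPINB13, were at 0 in all 9 libraries. A 0 in 1 library alone allows an expected count of up to 3, and 0 in all 9 makes that bound tighter. The clades were unevenly represented: 2 of 10 clade A members passed, 5 of 13 in clade B, 1 of 2 in clades F and I, and the single members of clades G and H. The single members of clades C and D, antithrombin (SERPINC1) and heparin cofactor II (SERPIND1), did not pass. Another 8 rows with a SERPIN symbol carry other biotypes and are not members. Of these, SERPINH1P1, a processed pseudogene copy of SERPINH1, had 2 to 9 counts; how the counting split reads between such copies is not given in the sources used here.

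The same sparseness held inside the genomic clusters in which many serpin genes lie side by side. At 14q32, 9 clade A genes lie within 344 kb (chr14:94280455-94624055), and of these SERPINA1 and SERPINA5 passed the filter while no other reached more than 8 counts in a library. The 10 clade B genes at 18q21 (chr18:63476761-64019779) span 543 kb. There, SERPINB5, SERPINB7 and SERPINB8 passed and the others had 2 counts at most. In the 6p25 cluster of 3 genes (chr6:2832332-2972165), SERPINB1 and SERPINB6 passed and SERPINB9, the granzyme B inhibitor, had 3 to 9 counts.

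By length-scaled level, SERPINH1 (ENSG00000149257), which encodes the collagen chaperone HSP47 of the endoplasmic reticulum, stood far above the rest. In scramble it was at 104.7 ± 2.945 FPKM (n = 3), and it made up between 71% and 76.8% of the summed FPKM of the family in every library. SERPINB1 and SERPINA1 followed with 10.7 ± 1.35 and 8.62 ± 1.29 FPKM in scramble, and these neighbours overlapped within their spread. SERPINB6 had 3.78 ± 0.162 FPKM over a deposited length of 13201 bases, beside 3094 for SERPINB1 and 4902 for SERPINA1. Without length scaling it was above both in scramble, at 50.1 ± 2.16 CPM against 33.2 ± 4.09 and 42.5 ± 6.46. SERPINA5 (2.59 ± 0.738) and SERPING1 (2.38 ± 0.195) overlapped, as did SERPINB7 (1.56 ± 0.343), SERPINB8 (1.38 ± 0.236) and SERPINB5 (1.33 ± 0.482). SERPINE2 was at 0.714 ± 0.0619 FPKM, and SERPINF1 and SERPINI1 were each below 0.5 FPKM in scramble.

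**Figure D1:**
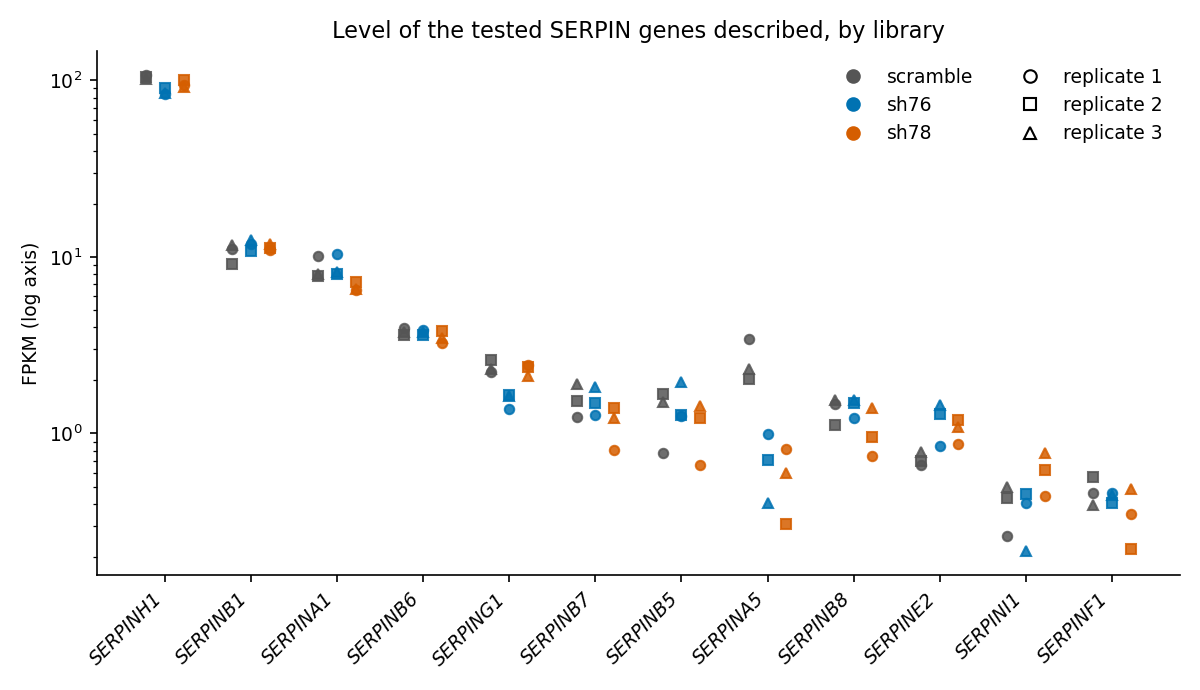
FPKM of 12 of the 13 tested serpins in each of the 9 libraries (log axis), ordered by mean level, with scramble, sh76 and sh78 in separate colours. Each marker shape is a replicate number. SERPINH1 lies above all other serpins in every library, and the scramble libraries of SERPINA5 lie above its hairpin libraries.

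Of the 13 tested serpins, 4 were called in sh76 against scramble (edgeR quasi-likelihood test, adjusted p under 0.05 over 17023 genes), where 3.58% of all tested genes were called. SERPINA5, SERPINH1 and SERPING1 fell and SERPINE2 rose, beside 2.16% of all genes called lower and 1.43% called higher. In sh78 against scramble 1 of 13 was called, SERPINA5, which fell, beside 4.41% of all genes (2.56% lower and 1.85% higher). Between the hairpins 1 of 13 was called, SERPING1, higher in sh78, against 3.7% of all genes (1.97% higher and 1.72% lower). Fewer cells of a kind and less RNA per cell cannot be told apart in these bulk libraries. The median log2 fold change of the tested serpins was −0.01 in sh76, −0.13 in sh78 and −0.24 for sh78 against sh76, and over all tested genes it was 0.01, 0.01 and 0.

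When same-numbered libraries were paired by a block term in the model, 4 serpins were called in sh76 (1 higher and 3 lower), 5 in sh78 (1 higher and 4 lower) and 4 between the hairpins (2 higher and 2 lower). Over all genes 20.4%, 19.9% and 18.3% were then called. By direction these were 9.63% higher and 10.7% lower in sh76, 9.79% and 10.1% in sh78, and 9.69% and 8.62% between the hairpins.

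**Figure D2:**
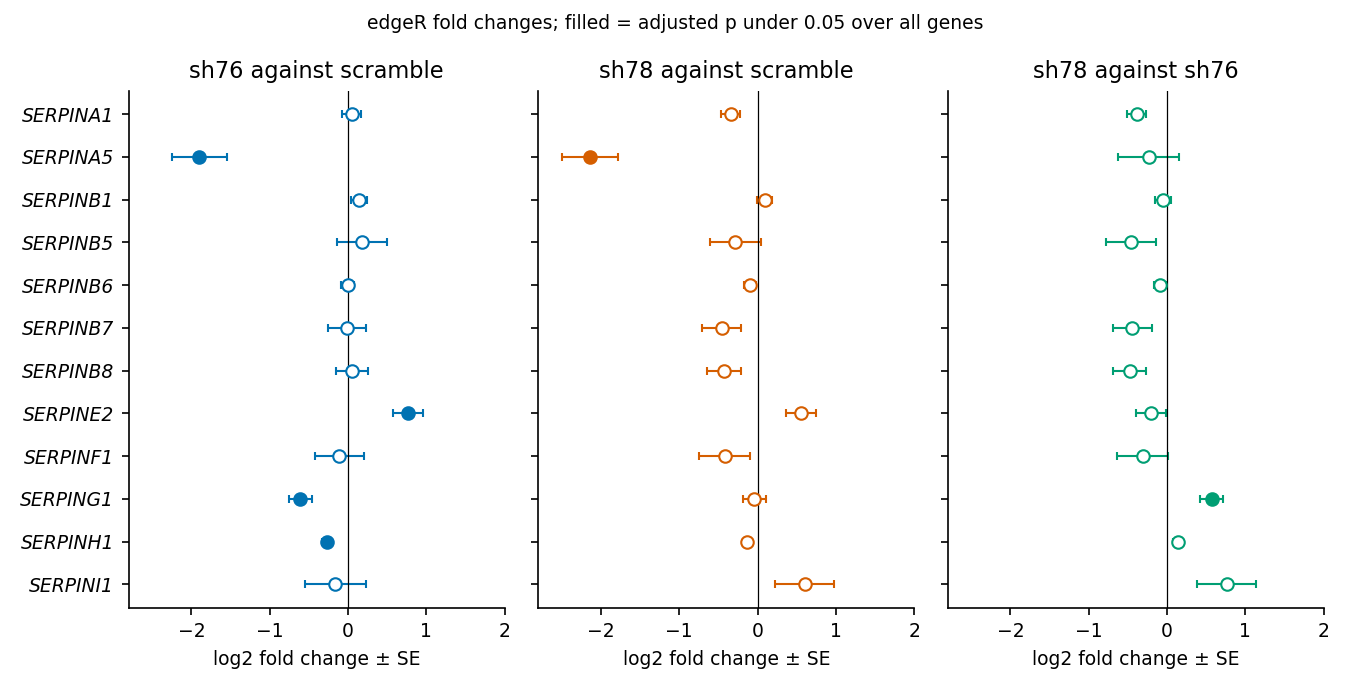
Fold change on the log2 scale with its standard error for 12 of the 13 tested serpins, with 1 panel each for sh76 against scramble, sh78 against scramble and sh78 against sh76. Filled points are called (edgeR adjusted p under 0.05): SERPINA5, SERPINE2, SERPING1 and SERPINH1 for sh76, SERPINA5 for sh78 and SERPING1 between the hairpins.

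SERPINA5 (ENSG00000188488, chr14:94561442-94593120, plus strand) encodes protein C inhibitor, a secreted, heparin-binding serpin that inhibits activated protein C, urokinase and several kallikreins. It had 13.1, 7.75 and 8.73 CPM in the scramble libraries, 3.76, 2.71 and 1.53 in sh76, and 3.12, 1.17 and 2.27 in sh78. Each of the 6 hairpin libraries was lower than the lowest scramble library, and the hairpin groups overlapped. The level fell by 1.90 (SE 0.35) on the log2 scale in sh76, leaving 26.8% of scramble (edgeR adjusted p 0.0118), and by 2.14 (SE 0.36) in sh78, leaving 22.7% (edgeR adjusted p 0.00585). Within replicate numbers the log2 differences were −1.77, −1.48 and −2.44 for sh76 and −2.03, −2.63 and −1.89 for sh78. The hairpins differed by −0.24 (SE 0.39, edgeR adjusted p 0.841). Leaving out sh76 replicate 2 ended the call for that hairpin (log2 −1.92, edgeR adjusted p 0.0693), as did the log2(FPKM + 0.1) scale (limma adjusted p 0.0634). The gene shares 132 exonic bases, 3.5% of its length, with other genes.

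SERPINA5 is a plasma protein made in liver, so the hepatocyte markers were read beside it. Their summed level (ALB, APOA1 and TTR) was 1.51 to 2.05 FPKM in scramble, 0.225 to 0.948 in sh76 and 0.185 to 0.989 in sh78. TTR was at 0 in every library, ALB was at most 0.126 FPKM, and APOA1 made up the rest, with 1.97, 2 and 1.49 FPKM in scramble, 0.858, 0.168 and 0.2 in sh76, and 0.862, 0.144 and 0.317 in sh78. Their part in the SERPINA5 result was not tested.

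The promoter window of SERPINA5 in RefSeq (GRCh38.p14, chr14:94581176-94581475, plus strand) runs from 250 bases before to 50 bases after an annotated start site, 19984 bases downstream of the gene start in the deposited table. It is shown because SERPINA5 is the member called with both hairpins. Capitals mark matches to the motifs searched on both strands: the interferon-response GAS motif TTCNNNGAA at position −220 from the start site and a GC box (GGGCGG) at −74. GAS matches occur in 7.66% of all 35116 RefSeq promoter windows of this length and GC boxes in 45%.
SERPINA5: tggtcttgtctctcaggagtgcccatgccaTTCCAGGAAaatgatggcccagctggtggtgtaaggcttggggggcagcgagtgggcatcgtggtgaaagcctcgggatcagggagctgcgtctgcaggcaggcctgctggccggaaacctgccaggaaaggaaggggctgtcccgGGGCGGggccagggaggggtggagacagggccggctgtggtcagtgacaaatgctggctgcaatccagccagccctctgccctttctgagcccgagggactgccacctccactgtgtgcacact

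SERPINA1 (ENSG00000197249, chr14:94376747-94390693, minus strand), another member of the 14q32 cluster, encodes alpha-1-antitrypsin, the main plasma inhibitor of neutrophil elastase. It had 50, 38.5 and 39 CPM in scramble, 51.6, 39.5 and 40.5 in sh76, and 32.3, 35.6 and 32.4 in sh78. The sh78 libraries all lay below the other 6, and scramble and sh76 overlapped. The log2 difference was 0.04 (SE 0.12) in sh76 and −0.34 (SE 0.12) in sh78 (edgeR adjusted p 0.899 and 0.144). With the replicate block, SERPINA1 was called in sh78 (edgeR adjusted p 0.0018) and between the hairpins (edgeR adjusted p 0.00047). Its log2 differences within replicate numbers were 0.05, 0.04 and 0.05 in sh76, and −0.63, −0.11 and −0.27 in sh78. Summed over clade A, the level was 11.29 ± 2.069 FPKM in scramble, 9.622 ± 1.581 in sh76 and 7.399 ± 0.2047 in sh78 (n = 3).

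SERPINH1 (chr11:75562056-75572783, plus strand) had 683, 659 and 641 CPM in scramble, 534, 575 and 535 in sh76, and 594, 633 and 583 in sh78. Every sh76 and every sh78 library was below every scramble library. The level fell by 0.27 (SE 0.058) in sh76 (edgeR adjusted p 0.0191). In sh78 the difference was −0.13 (SE 0.058, edgeR adjusted p 0.252, and 0.0143 with the replicate block). Between the hairpins it was 0.14 (edgeR adjusted p 0.248, and 0.0125 with the block). Per length, it was at 86.4 ± 3.577 FPKM in sh76 and 95.38 ± 4.31 in sh78, beside the scramble level given above. The sh76 call was lost without scramble replicate 2, sh76 replicate 1 or sh76 replicate 3 (edgeR adjusted p 0.059, 0.0613 and 0.0716).

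HSP47 is a heat shock protein, and heat shock factor binds inverted repeats in its targets' promoters. The first RefSeq window of SERPINH1 (chr11:75562003-75562302, plus strand) holds 1 match to the heat shock element GAANNTTC, at −71 and in capitals below. Its second window holds 0. Of the 18 windows of tested serpins 2 hold a match, 1 each in SERPINH1 and SERPINB7, beside 6.77% of all windows. HSF1, the factor's gene, chosen after its values were seen, had a log2 difference of −0.01 in sh76 and 0.00 in sh78 (edgeR adjusted p 0.964 and 0.999). These are mRNA levels, and a part of the factor in the SERPINH1 result was not tested.
SERPINH1: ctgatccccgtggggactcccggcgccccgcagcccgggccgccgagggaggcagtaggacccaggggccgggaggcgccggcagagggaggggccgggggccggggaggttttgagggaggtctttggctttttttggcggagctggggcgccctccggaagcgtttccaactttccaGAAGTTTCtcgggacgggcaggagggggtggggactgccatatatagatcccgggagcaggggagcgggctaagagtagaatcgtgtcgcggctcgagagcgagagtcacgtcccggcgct

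A list of 31 collagen genes, chaperones and modifying enzymes that work beside HSP47 had 29 tested members. In the fit without a block, 1 was called in sh76 and 3 in sh78, where 3.58% and 4.41% of all genes were called. In sh76 this was SEC23A of the secretory coat, which fell (log2 −0.41, edgeR adjusted p 0.00308). In sh78, COL4A2 (log2 0.33, edgeR adjusted p 0.00618) and the procollagen protease BMP1 (0.40, 0.00455) rose, and the lysyl hydroxylase PLOD2 fell (−0.37, 0.0407). The median log2 fold change of the list was −0.01 in sh76 and 0.06 in sh78. COL1A1, the fibrillar collagen chain best known as a client of HSP47, had log2 differences of 0.24 and 0.26 (edgeR adjusted p 0.577 and 0.557), and with the replicate block these were 0.0137 and 0.00496. COL1A1 is also the 1 fibroblast marker of 6 with a mean over all 9 libraries of at least 1 FPKM. The 6 fibroblast markers summed to 2.88 to 4.05 FPKM in scramble, 3.2 to 5.38 in sh76 and 3.62 to 4.87 in sh78. LUM and DCN were at 0 in all scramble libraries, and the markers' part in the collagen values was not tested. COL1A2, a marker that is also on the list, had 1.23, 6.88 and 1.24 CPM in sh76 (log2 1.30, edgeR adjusted p 0.353). Its high value rested on sh76 replicate 2, the only library with reads of LUM. COL3A1 and COL5A1 did not pass the filter. With the block, 5 members were called in sh76 and 12 in sh78, where 20.4% and 19.9% of all genes were called.

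SERPING1 (ENSG00000149131, chr11:57597387-57614853, plus strand) encodes C1 inhibitor, which blocks the complement proteases C1r and C1s and plasma kallikrein. It had 8.10, 9.45 and 8.33 CPM in scramble, 5, 6.01 and 5.92 in sh76, and 8.83, 8.67 and 7.66 in sh78. The sh76 libraries lay below all the others, and scramble and sh78 overlapped. The level fell by 0.61 (SE 0.15) in sh76, leaving 65.6% of scramble (edgeR adjusted p 0.0362). In sh78 the difference was −0.04 (SE 0.15, edgeR adjusted p 0.931). The hairpins themselves differed by 0.57 (SE 0.15, edgeR adjusted p 0.0498), and the edgeR adjusted p was 0.00234 with the block. The sh76 call was lost without scramble replicate 2 or 3 or any 1 of the sh76 libraries, where the edgeR adjusted p ran from 0.0811 to 0.138, and also on both FPKM scales (limma adjusted p 0.0691 and 0.0614) and with 2 groups only (edgeR adjusted p 0.0629). The call between hairpins was lost in 8 of the 9 fits that left out 1 library, all but the one without scramble replicate 1. It was also lost with total counts only and with 2 groups only (edgeR adjusted p 0.0522 and 0.0716), and on both FPKM scales (limma adjusted p 0.0835 and 0.0744). Of its partner proteases, C1R had log2 differences of 0.07 and 0.17 in sh76 and sh78, and C1S −0.04 and 0.27; none was called (edgeR adjusted p 0.871, 0.64, 0.948 and 0.503). F12 had −0.18 and 0.09 (edgeR adjusted p 0.715 and 0.885), and KLKB1 had at most 1 count in a library.

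SERPINE2 (ENSG00000135919, chr2:223975112-224039319, minus strand) encodes protease nexin-1, a secreted inhibitor of thrombin, urokinase and the membrane protease prostasin. It had 5.91, 6.28 and 6.95 CPM in scramble, 7.65, 11.6 and 13 in sh76, and 7.86, 10.7 and 9.74 in sh78. Each hairpin library was higher than the highest scramble library. The level rose by 0.76 (SE 0.19) in sh76, a fold of 1.69 (edgeR adjusted p 0.0433). In sh78 the difference was 0.56 (edgeR adjusted p 0.141, and 0.00229 with the block). Replicate 1 was lowest in each group, and the log2 differences within replicate numbers were 0.37, 0.88 and 0.90 in sh76. The sh76 call was lost without any 1 of the scramble libraries, sh76 replicate 2 or 3, or sh78 replicate 2 or 3, with edgeR adjusted p from 0.0562 to 0.167. It was also lost on both FPKM scales (limma adjusted p 0.229 and 0.211) and with 2 groups only (edgeR adjusted p 0.0637).

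The first RefSeq window of SERPINE2 (chr2:224031429-224031728, minus strand) holds 7 matches to the CCAAT box (CCAAT) and 1 GC box, in capitals below. Its start site lies 7841 bases from the gene start in the deposited table. A second window, whose site lies 679 bases from that start, holds 0 CCAAT matches and 2 GC boxes. The CCAAT matches lie between −250 and −27. They lie in a stretch of sequence that recurs with small changes within the window. At least 1 CCAAT match occurs in 34.6% of all windows, and how many windows hold 7 was not counted. The repeated boxes are shown because SERPINE2 is the tested serpin called higher in sh76.
SERPINE2: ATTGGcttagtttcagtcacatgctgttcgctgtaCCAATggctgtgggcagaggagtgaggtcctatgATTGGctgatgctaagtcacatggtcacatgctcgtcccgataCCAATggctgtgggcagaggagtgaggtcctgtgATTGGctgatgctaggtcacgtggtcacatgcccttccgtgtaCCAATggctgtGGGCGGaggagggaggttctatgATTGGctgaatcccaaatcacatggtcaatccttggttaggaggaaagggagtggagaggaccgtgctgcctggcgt

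**Figure D3:**
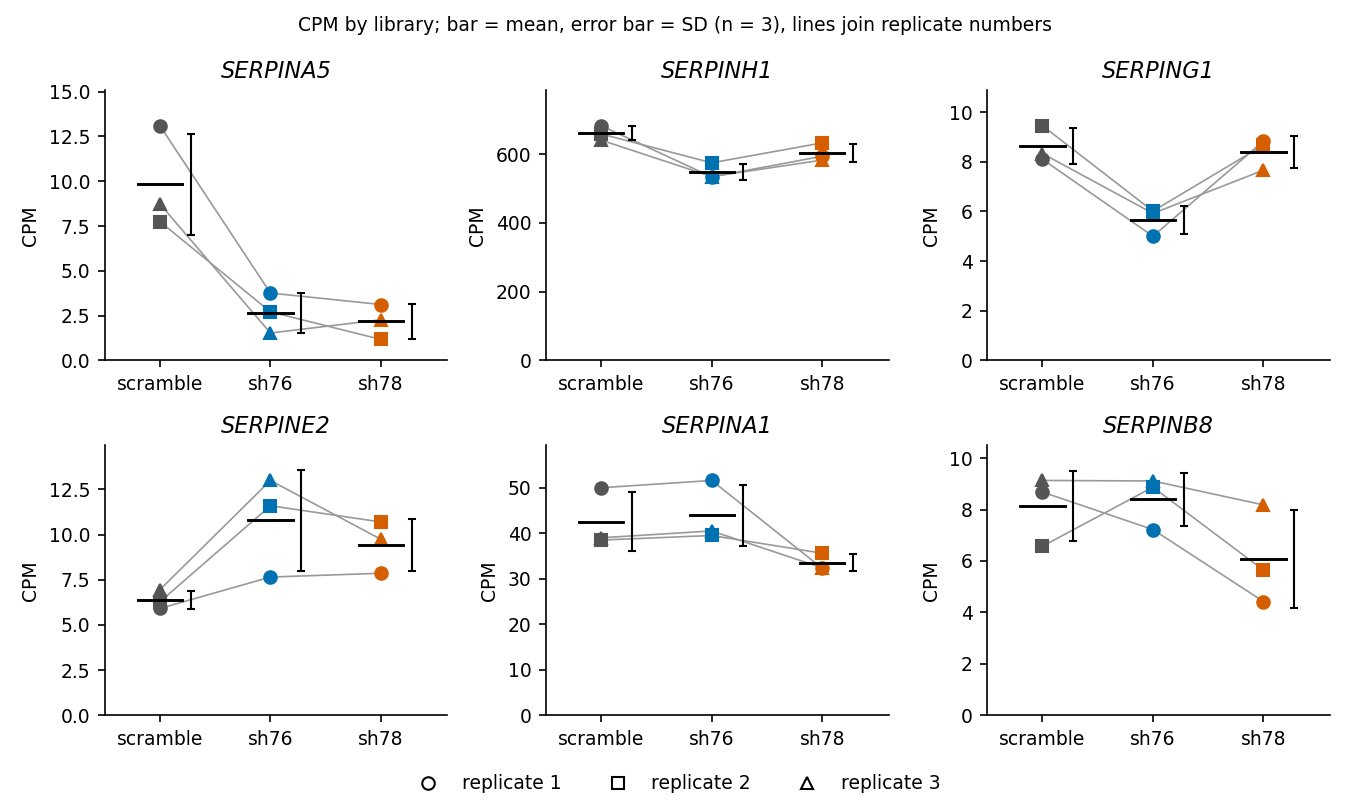
CPM of 6 serpins in every library, with the mean and SD of each group (n = 3) and lines joining libraries of the same replicate number. The hairpin libraries of SERPINA5 lie under its scramble libraries, those of SERPINE2 lie over them, and for SERPING1 the sh76 libraries lie under the other 6.

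Of the 5 tested members of clade B, the intracellular serpins, 0 were called in the 3 comparisons by edgeR without a block. Of all genes 3.58% (sh76), 4.41% (sh78) and 3.7% (between the hairpins) were called, so 0 of 5 is near that share. DESeq2 also called 0, beside 854, 976 and 850 genes in all. With the block, edgeR called 1 in sh78 and 1 between the hairpins, SERPINB8 in both, beside 19.9% and 18.3% of all genes. At an unadjusted edgeR p under 0.05 there were 0 in each hairpin comparison and 1 between the hairpins, SERPINB8. Of all 17023 genes, 2959 (sh76), 2983 (sh78) and 2768 (between the hairpins) were under that p. The summed level of clade B was 18.8 ± 1.73 FPKM in scramble, 19.97 ± 1.507 in sh76 and 18.2 ± 1.51 in sh78. SERPINB6 (ENSG00000124570), a cytosolic inhibitor of cathepsin G, had 52.5, 48.2 and 49.8 CPM in scramble, 51.7, 48.3 and 49.8 in sh76, and 43.5, 50.7 and 46.2 in sh78. SERPINB1 (ENSG00000021355), an inhibitor of neutrophil elastase, had 34.7, 28.5 and 36.2 CPM in scramble, 37.1, 33.6 and 39 in sh76, and 34, 35 and 36.8 in sh78. The groups overlapped for both.

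SERPINB8 (ENSG00000166401), which can inhibit furin, had 8.68, 6.57 and 9.13 CPM in scramble, 7.22, 8.87 and 9.11 in sh76, and 4.42, 5.64 and 8.18 in sh78. The groups overlapped, with 2 of the sh78 libraries below all others. Its log2 difference in sh78 was −0.43 (edgeR adjusted p 0.335, and 0.0398 with the block). Between the hairpins it was −0.48 (edgeR adjusted p 0.28, and 0.0186 with the block). For this gene 10.7% of the exonic bases are shared with other genes. The largest overlap is with HMSD on the same strand, which had 4 counts over the 9 libraries, beside 1187 for SERPINB8. How reads of shared bases were counted is not given in the sources used here, so some uncertainty in its count stays. SERPINB5 (maspin, ENSG00000206075), a clade B member that inhibits no known protease and is lost in some carcinomas, had 3.09, 6.69 and 5.97 CPM in scramble, 5, 5.09 and 7.73 in sh76, and 2.64, 4.81 and 5.65 in sh78. SERPINB7 (ENSG00000166396), a serpin of the upper epidermis, had 3.28, 4.05 and 5.05, then 3.39, 3.97 and 4.87, then 2.15, 3.71 and 3.25. In both genes the 3 groups overlapped, and replicate 1 was lowest in each group.

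SERPINF1 (PEDF) was at 1.46 ± 0.28, 1.35 ± 0.0835 and 1.09 ± 0.403 CPM. SERPINI1 (neuroserpin, an inhibitor of tissue plasminogen activator) was at 0.968 ± 0.292, 0.875 ± 0.31 and 1.49 ± 0.404 CPM. Neither was called, and the groups overlapped.

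Levels also moved with the replicate number. In a comparison chosen after the values were seen, replicate 1 was set against the mean of replicates 2 and 3 in the blocked fit, and 5 of 13 serpins were called (38.5%), where 24.1% of all genes were (11.8% higher and 12.4% lower in replicate 1). SERPINA5 (log2 0.75, edgeR adjusted p 0.000711) and SERPINA1 (0.23, 0.00915) were higher in replicate 1, and SERPINB5 (−0.75, 0.000481), SERPINB7 (−0.50, 0.0271) and SERPINE2 (−0.43, 0.00579) were lower. The labels do not say what the replicate number marks.

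A list of 59 protease genes was taken as possible serpin targets, of which 35 were tested. Whether a serpin inhibits each of them was not checked. In sh76, 1 rose and 6 fell, and in sh78 the 9 called members all fell, where 3.58% and 4.41% of all genes were called. Their median log2 fold change was −0.11 and −0.18. With the block, 5 rose and 13 fell in sh76, and 2 rose and 17 fell in sh78, where 20.4% and 19.9% of all genes were called. KLK6, a secreted trypsin-like kallikrein abundant in ovarian carcinoma, fell from 36.7 ± 2.58 CPM to 14.7 ± 0.313 and 6.9 ± 1.06 (log2 −1.32 and −2.41, edgeR adjusted p 5.04e-05 and 2.2e-07). KLK7, a chymotrypsin-like kallikrein, fell from 23.5 ± 3.26 to 14.7 ± 1.4 and 7.03 ± 1.51 (edgeR adjusted p 0.0226 and 5.3e-05). The lysosomal cathepsins CTSL (log2 −0.68 and −0.67) and CTSB (−0.27 and −0.50) also fell with both hairpins (edgeR adjusted p 0.00134, 0.00112, 0.018 and 0.000232). The other members called in sh78, named after their values were seen, were the kallikreins KLK5, KLK8, KLK10, KLK11 and KLK14, and in sh76 the membrane proteases HPN (log2 −0.80, edgeR adjusted p 0.0038) and TMPRSS2 (−0.54, 0.0137).

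PLAU, the urokinase inhibited by SERPINA5 and SERPINE2, had opposite signs. It had 68.0, 66.8 and 78.6 CPM in scramble, 86.8, 110 and 103 in sh76, and 47.7, 63.0 and 54.8 in sh78, with no overlap between the 3 groups. It rose in sh76 (log2 0.50, edgeR adjusted p 0.0252) and had a log2 difference of −0.37 in sh78 (edgeR adjusted p 0.0915, and 0.000204 with the block). The hairpins differed by −0.86 (edgeR adjusted p 0.000921). The other partners of SERPINA5 and SERPINE2 were less clear: PLAT had 0.09 and −0.04, PROC 0.18 and −0.08, and PRSS8, the prostasin gene, −0.25 and −0.10 (edgeR adjusted p 0.872, 0.947, 0.891, 0.959, 0.0733 and 0.549). With the block PRSS8 was called in sh76 (edgeR adjusted p 0.000148). Thrombin's gene F2 had at most 3 counts in a library, and plasminogen's gene PLG had none.

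**Figure D4:**
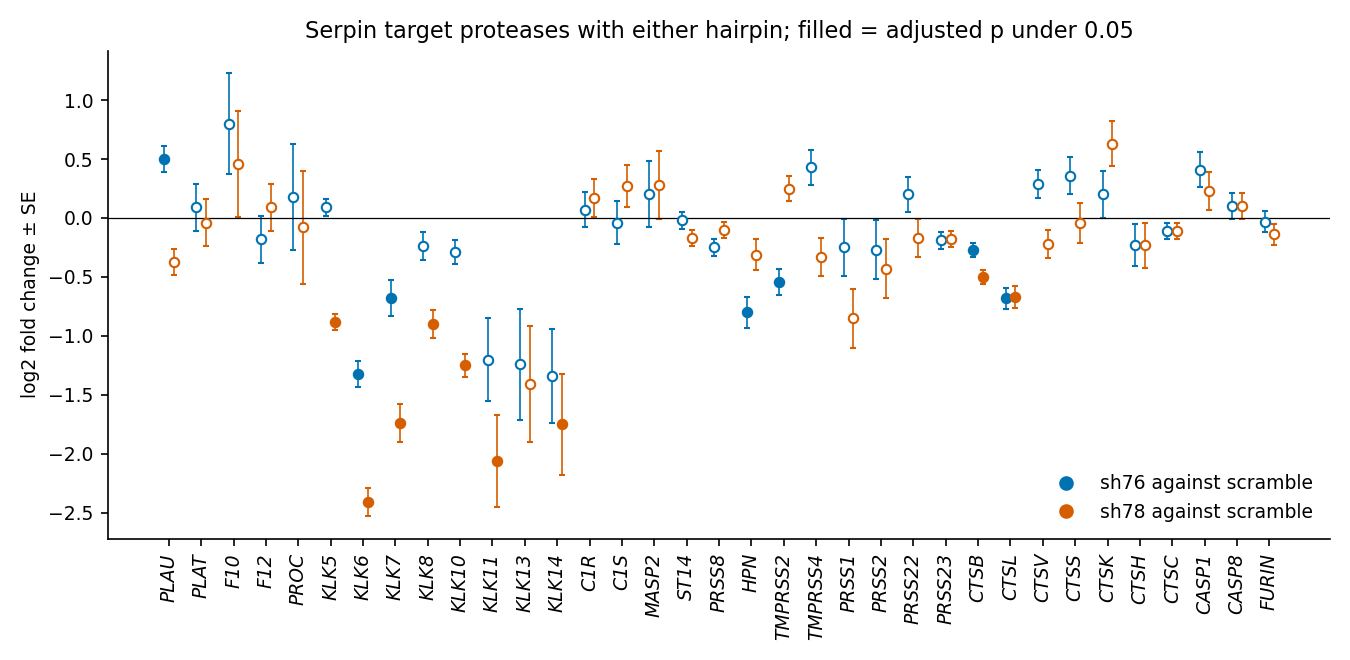
Fold change on the log2 scale with its standard error for the 35 tested proteases of the list of possible serpin targets, in sh76 and in sh78 against scramble. Filled points are called (edgeR adjusted p under 0.05). KLK6, KLK7, CTSB and CTSL are filled and below 0 for both hairpins, and PLAU lies above 0 in sh76 and below it in sh78.

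Serpin complexes are cleared by receptors of the LDL receptor family, and their activity depends on cofactors. The list of 27 genes used here also held receptors for proteases and protease inhibitors of the Kunitz type. Of these 27 genes, 22 were tested. In sh76, 3 rose and 1 fell, and in sh78, 1 rose, where 3.58% and 4.41% of all genes were called. With the block, 4 were called higher and 6 lower in sh76, and 2 higher and 7 lower in sh78, beside 20.4% and 19.9% of all genes. LRP2, the endocytic receptor megalin, rose with both: 116 ± 7.73 CPM in scramble, 152 ± 10.1 in sh76 and 181 ± 13.8 in sh78 (log2 0.39 and 0.64, edgeR adjusted p 0.0104 and 0.000287). The other 2 that rose in sh76, named after their values were seen, were TFPI2 (log2 0.65, edgeR adjusted p 0.0131) and SPINT1 (0.39, 0.00308), both inhibitors of the Kunitz type. LRP1, the main clearance receptor for serpin complexes, had −0.21 and −0.09 (edgeR adjusted p 0.187 and 0.66), with a p of 0.000467 in sh76 under the block. F2R, the thrombin receptor, fell in sh76 (log2 −0.47, edgeR adjusted p 0.00991) and had −0.09 in sh78.

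For the called serpins with the lowest and the highest mean log2 fold change over both hairpins, SERPINA5 and SERPINE2, the genes whose levels ran most alike were listed as a description, by Pearson r of log2 CPM over the 9 libraries. Such r values also carry group and replicate number. For SERPINA5, over 11042 protein-coding genes, these were TRAF4 (0.968), MTHFD2 (0.948), ERGIC3 (0.947), LEPROT (0.944) and SNRNP40 (0.943). For SERPINE2, over 11043, these were CBX6 (0.977), MTMR10 (0.969), AARD (0.96), KCNQ3 (0.958) and PLEKHA4 (0.958).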

How the data were processed

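RNA was measured in 9 libraries, made per the labels' protocols from poly-T-selected mRNA and without strand. The submitters' processing notes name HISAT2 2.0.5, featureCounts 1.5.0-p3 and hg38; settings are not given in the sources used here. The authors deposited whole-number counts per gene and FPKM values for 58735 genes. The deposited FPKM equalled the counts divided by gene length and 1 size per library. Gene starts and ends match GENCODE 29 (GRCh38).

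Counts were tested with edgeR 4.0.16 (R 4.3.3): filterByExpr (minimum count 10, total 15; 17023 genes kept), TMM scaling, robust quasi-likelihood fits over all 9 libraries, Benjamini-Hochberg adjustment over all genes tested, and 3 contrasts. Residual degrees of freedom were 6. Totals of 14652965 to 21327562 counts per library limit the precision of low genes. SE is that of the log2 fold change. Alternatives were DESeq2 1.42.0, limma 3.58.1 on log2(FPKM + 1 or 0.1), other scaling and filters, 2 groups only, and leaving out each library. The edgeR code was tested on simulated data.

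Same-numbered libraries deviated together (r 0.14 to 0.39 in 9 of 9 pairs, against −0.31 to 0.06 in 18 other pairs), so a fit with replicate number as a block (4 residual degrees of freedom) stands beside results it changes. Within-group pairs differed beyond sampling noise (chi-square per degree of freedom 5.32 to 12.2).

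Serpins called in a contrast, or whose group mean reached 1 FPKM, are given with values in every library. Per list, up to 4 genes called with both hairpins in 1 direction, plus textbook partners of called serpins, are named with group values or fold changes. Members and lists were chosen with earlier results of these data known. Promoter windows are from RefSeq (GRCh38.p14), and 10 of the 12 tested members described matched. The values of 1 further member are not reported here. Without strand, reads of overlapping genes cannot be told apart.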

Additional observations from a re-analysis of the deposited data

Results flagged for a closer look

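A pair of values stood out because the 2 hairpins differed from each other in a direct test. GPX3 was lower in sh78 than in sh76, with a log2 difference of −0.86 (edgeR adjusted p 0.0194), so the knockdown itself was deeper in sh78. SERPING1 was higher in sh78 than in sh76 by 0.57 on the log2 scale (edgeR adjusted p 0.0498).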

How the results depend on the processing

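Over 18 alternative fits, 581 of 648 recomputed serpin fold changes kept their direction and side of the threshold. Another 35 were no longer past it, 11 were newly past it and 21 changed sign. Most of the 648 belong to comparisons without a call, which had none to lose. Of the 18 fits, the call was lost in 12 for SERPING1 between hairpins. In sh76 it was lost in 10 for SERPINE2, 8 for SERPING1, 3 for SERPINH1 and 2 for SERPINA5. For SERPINA5 in sh78 it was lost in 0. Of the sign changes, 0 fell on a serpin in a comparison in which it was called. Counts of lists under alternatives were chosen after seeing the data, and the cause of the changes below was not tested.

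With the replicate block, genes called were 3467 (sh76), 3388 (sh78) and 3117 (sh78 against sh76); serpins called were 5 in sh78 and 4 between hairpins; proteases 18 and 19, receptors and cofactors 10 and 9, and collagen partners 5 and 12 in sh76 and sh78. Without a count filter, 36087 genes and 30 serpins were tested. There, genes called were 1149, 1212 and 1125, and serpins 3 (sh78) and 2 (between hairpins). Of the lists, 11 of 54 proteases (sh76), 3 of 27 receptors (sh78) and 3 and 9 of 31 collagen partners were called. Both FPKM scales tested 23013 genes and 14 serpins. With log2(FPKM + 1), genes called were 257, 349 and 254, serpins 2 (sh76) and 0 (between hairpins), and proteases 4 of 37 (sh76). On that scale GPX3 between hairpins was −0.81 (limma adjusted p 0.0513). With log2(FPKM + 0.1), genes called were 245, 360 and 267, serpins 1 (sh76) and 0 (between hairpins), and proteases 4 of 37 (sh76). With 2 groups only, serpins called were 2 of 12 (sh76) and 0 of 12 (between hairpins) and collagen partners 2 of 29 (sh76). In those fits 526 of 16646 genes (sh76) and 602 of 16608 (between hairpins) were called. With total counts only, serpins called between hairpins were 0, beside 642 of 17023 genes, and SERPINB6 in sh76 was 0.00. DESeq2 called 3 members of the receptor and cofactor list in sh78, where it called 976 genes in all. Beside those counts of 0, the edgeR test had 4 of 13 serpins between hairpins at an unadjusted p under 0.05. Of all 17023 genes, 2768 were under that p.

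Leaving out 1 library at a time, serpins called ran from 1 to 4 (sh76), 1 to 1 (sh78) and 0 to 2 (between hairpins). Genes called ran from 237 (without sh76 replicate 2) to 655, from 418 (without scramble replicate 2) to 810, and from 273 (without sh76 replicate 2) to 780. GPX3 ran from −1.38 to −1.02, −2.24 to −1.88 and −0.98 to −0.80, the last losing its call in 5 of 9. Proteases ran from 4 to 7 and 8 to 11, receptors 2 to 5 and 1 to 2, and collagen partners 1 to 2 and 2 to 4. Ranges that crossed 0 in sh76 were SERPINA1 −0.09 to 0.17, SERPINB5 −0.09 to 0.38, SERPINB6 −0.04 to 0.02, SERPINB7 −0.16 to 0.15, SERPINB8 −0.09 to 0.15, SERPINF1 −0.24 to 0.04 and SERPINI1 −0.39 to 0.11. In sh78 they were SERPINB1 −0.01 to 0.16 and SERPING1 −0.08 to 0.03, and between hairpins SERPINA5 −0.60 to 0.07.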
